A study of Mus musculus with 4 samples.

Results

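MHC class I molecules and the machinery that fills them with peptide are described here through 10 genes, H2-K1, H2-D1, H2-Q7, B2m, Tap1, Tap2, Tapbp, Psmb8, Psmb9 and Nlrc5. They were taken by gene symbol from the 53801 genes of each of the 2 deposited tables, and each symbol matched 1 Ensembl identifier in both tables. RNA was sequenced from blood cells of wild-type mice in 2 tumour models, B16, a melanoma line, and CT-26, a colon carcinoma line. In each model 1 library came from circulating tumor-reactive lymphocytes, abbreviated CTRL in the labels, which are CD8+ cells that bound MHC multimers, and 1 library came from a residual population that is also labelled CD8+. In this text CTRL therefore names the multimer-binding cells and never a control. From the labels it cannot be read what the residual held (CD8+ cells left unbound, or every remaining mononuclear cell of the blood), how many mice gave each library, or which strain carried each tumour.

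MHC class I molecules carry peptides from inside the cell to its surface, where CD8+ T cells and natural killer cells read them. A heavy chain, encoded by H2-K1, H2-D1 and H2-Q7 among other H2 genes, pairs with the light chain beta-2 microglobulin, encoded by B2m. Psmb8 and Psmb9 encode inducible catalytic subunits that turn the proteasome into the immunoproteasome, Tap1 and Tap2 form the transporter that moves the cut peptides into the endoplasmic reticulum, and Tapbp encodes tapasin, which holds the empty heavy chain at the transporter. Nlrc5 is the transactivator of this gene set and works through factors bound at class I promoters (RFX, CREB or ATF, and NF-Y). Nearly all nucleated cells express these genes, lymphocytes strongly.

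Most of the 10 genes lie in the MHC region of mouse chromosome 17. On GRCm38 (mm10) with the GENCODE M21 annotation, Tapbp (ENSMUSG00000024308) lies at chr17:33915899-33929292 and H2-K1 (ENSMUSG00000061232) at chr17:33996017-34000347. Psmb9 (ENSMUSG00000096727) lies at chr17:34181987-34187764 on the minus strand, directly beside Tap1 (ENSMUSG00000037321) at chr17:34187553-34197225 on the plus strand, Psmb8 (ENSMUSG00000024338) at chr17:34197721-34201454 and Tap2 (ENSMUSG00000024339) at chr17:34203527-34216321. H2-D1 (ENSMUSG00000073411) lies at chr17:35262730-35267499 and H2-Q7 (ENSMUSG00000060550) at chr17:35439155-35443773. B2m (ENSMUSG00000060802) lies outside the complex at chr2:122147686-122153083, and Nlrc5 (ENSMUSG00000074151) at chr8:94434356-94527272.

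The promoters of the 3 heavy chain genes and B2m are shown because they carry the elements through which Nlrc5, NF-kB and interferon-induced factors are known to act on class I genes, so that the sequence can be set beside the measured ratios. Each line gives the 200 bases before the RefSeq start (GRCm38.p6), 5′ to 3′ on the gene's own strand. Capitals mark matches to the NF-kB site GGGATTCCC, to the interferon-response-like motifs GAANNGAAA and GAAANNGAA on either strand, and to the X2-Y pair, TGACG followed 18 to 21 bases later by ATTGG. In the heavy chain genes the second motif reads on the opposite strand and so appears as TTTCACTTC.
H2-K1, chr17:34000348-34000547, minus strand: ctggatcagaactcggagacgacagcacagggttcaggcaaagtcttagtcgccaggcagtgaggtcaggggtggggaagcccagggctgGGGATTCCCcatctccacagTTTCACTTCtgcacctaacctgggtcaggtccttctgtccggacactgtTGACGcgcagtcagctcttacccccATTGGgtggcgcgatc
H2-D1, chr17:35262894-35263093, plus strand: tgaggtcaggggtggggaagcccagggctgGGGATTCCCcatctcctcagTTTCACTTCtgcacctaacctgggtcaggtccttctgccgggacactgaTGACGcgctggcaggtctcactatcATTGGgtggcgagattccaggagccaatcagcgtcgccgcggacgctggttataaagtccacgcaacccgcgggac
H2-Q7, chr17:35438955-35439154, plus strand: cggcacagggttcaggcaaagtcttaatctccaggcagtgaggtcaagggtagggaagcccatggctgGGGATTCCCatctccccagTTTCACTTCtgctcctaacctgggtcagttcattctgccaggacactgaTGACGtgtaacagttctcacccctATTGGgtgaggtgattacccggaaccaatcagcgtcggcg
B2m, chr2:122147487-122147686, plus strand: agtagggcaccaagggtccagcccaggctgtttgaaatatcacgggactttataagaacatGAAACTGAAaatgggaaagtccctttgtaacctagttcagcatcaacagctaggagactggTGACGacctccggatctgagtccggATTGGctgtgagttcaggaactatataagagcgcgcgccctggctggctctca

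The 3 heavy chain promoters held the same 3 elements in the same order, and the B2m promoter held GAAANNGAA and the X2-Y pair. The gap inside the X2-Y pair was 20 bases in H2-K1, H2-D1 and B2m and 19 bases in H2-Q7. Among 32851 RefSeq windows of the same length, 0.21% held the NF-kB site, 5.0% GAANNGAAA, 5.57% GAAANNGAA and 0.21% the X2-Y pair, counted on both strands. The motifs were chosen after the sequences had been seen, and a match describes letters and not a bound site. RefSeq windows were found for 8 of the 10 genes, and those of Tap1, Psmb9, Psmb8 and Tapbp held no match to these 4 motifs.

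Tap1 and Psmb9 are transcribed away from each other, and their RefSeq starts leave 225 bases between them. That stretch is shown because the 2 genes share it and their ratios can be set side by side. It is written on the Tap1 strand, with no capitals since none of the motifs was found in it.
Tap1 and Psmb9, chr17:34187331-34187555, plus strand: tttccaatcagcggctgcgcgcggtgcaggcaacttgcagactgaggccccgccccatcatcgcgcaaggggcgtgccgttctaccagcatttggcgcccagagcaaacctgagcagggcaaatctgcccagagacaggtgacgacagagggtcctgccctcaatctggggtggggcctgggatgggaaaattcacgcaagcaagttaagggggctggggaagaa

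The libraries differed in more than the multimer selection. Reads in genes numbered 37166063 and 39068457 in the CTRL and residual libraries of B16, and 74879891 and 50823018 in those of CT-26. Haemoglobin transcripts took 1.28% of B16 CTRL reads and 42.0% of B16 residual reads, and 0.629% and 10.8% in the CTRL and residual libraries of CT-26. The CD8 genes Cd8a and Cd8b1 summed to 37886 and 165 normalized counts in the CTRL and residual libraries of B16 and to 133388 and 2209 in those of CT-26, so both residual libraries go against their CD8+ label and are called the libraries labelled residual. B-cell markers were higher in B16 CTRL (203916 and 39107 normalized counts summed over 8 genes in CTRL and residual, with 7 of 8 at a log2 ratio of 1 or more) and lower in CT-26 CTRL (14467 and 57025, 8 of 8 at -1 or less). Log2 ratios of the summed markers in B16 and CT-26 were 1.71 and 1.78 for T cells, -5.67 and -6.59 for neutrophils, -1.51 and -5.87 for monocytes and macrophages, -5.87 and -4.21 for erythroid cells, -4.10 and -2.91 for platelets, -1.02 and -4.85 for CD4 T cells, and -0.88 and -1.93 for dendritic cells. For the 5 NK-cell markers the median was -0.65 in B16 and -4.37 in CT-26, and their sum (0.71 and -0.96) was mostly Nkg7, which CD8 T cells also express. All 8 neutrophil genes were at -1 or less in both models (summed to 9881 and 501778 normalized counts in B16 CTRL and residual and to 7053 and 677864 in CT-26 CTRL and residual), as were 4 of 6 monocyte and macrophage genes in B16 and 6 of 6 in CT-26. Listed at 0 reads were the neutrophil genes Ngp, Ltf and Camp in B16 CTRL and the erythroid gene Rhag in both CT-26 libraries. Class I genes are active in most of these cell types, and the part of cell makeup in the values that follow was not tested. With bulk RNA, fewer cells of a type and less RNA per cell cannot be told apart.

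Ratios are log2 of CTRL over residual from the deposited normalized read counts, which are read counts divided by a size factor for each library, with a pseudocount of 1. A positive ratio means more in CTRL. Calls of higher or lower required a 2-fold difference, which is a log2 value of 1 or more in size, and 10 CPM (reads of a gene scaled to the library's total) in the higher of the libraries, and this is called the rule of size. Intervals are exact 95% intervals for the counting of reads only. Within a model the comparison is of 1 library with 1 library, with no replicate. Levels were compared only within a model, since the tables were normalized separately and heavy chain alleles differ between mouse strains.

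All 10 genes had more normalized reads in CTRL than in the residual library in both models, with counting intervals above 0. Each member had at least 1444 reads in a library, so these intervals are narrow. The share of all genes with such an interval was not computed. However, B2m and Psmb9 of CT-26 stood at -0.0029 and -0.045 when the libraries were scaled to Ptprc, the leukocyte gene for CD45. By the rule of size, 4 of 10 were higher and 0 lower in B16, where 26.8% of the 9289 genes at that level were higher and 11.7% lower. In CT-26, 1 of 10 was higher and 0 were lower, where 14.5% of 9514 genes were higher and 16.3% lower. The median ratio of the 10 genes was 0.90 in B16, against 0.47 for all genes at the level, and 0.63 in CT-26, against 0.23 for all genes. The median of the 10 genes thus lay 0.43 above that of all genes in B16 and 0.40 above it in CT-26. Single members spread widely around it. In B16 the share of genes at the level with a smaller ratio ran from 49.3% for H2-D1 to 94.5% for H2-Q7. In CT-26 it ran from 52.3% for Psmb9 to 98.8% for Nlrc5, with B2m at 54.5% and H2-D1 at 56.1%, so some members stood near the middle of all genes. A value above 0 was common, found for 69.5% of all genes at the level in B16 and for 60.3% of those in CT-26. With total reads as the scale, in which the haemoglobin share enters, 10 genes were higher in B16, where 63.6% of all genes at the level were, and 4 in CT-26, where 20.8% were. On that scale calls of higher were 90.8% of all calls in B16 and 58.8% in CT-26, against 69.5% and 47.0% with the deposited scaling and 59.4% and 27.6% with Ptprc. These scalings move every gene by the same amount, up to 0.84 in B16 and 0.32 in CT-26, so the distance between the 10 genes and the rest stayed at 0.43 and 0.40.

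**Figure D1:**
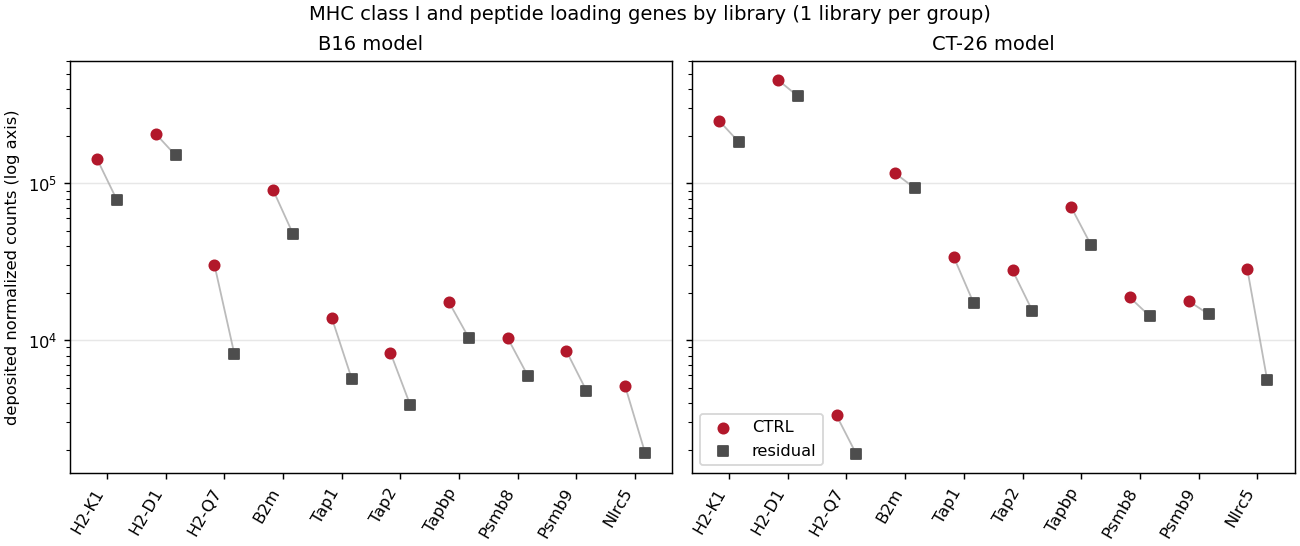
Deposited normalized counts of the 10 genes on a log axis in the B16 (left) and CT-26 (right) models, red circles for CTRL and grey squares for the library labelled residual, 1 library each, joined by a line for each gene. Every circle lies above its square, with the steepest line for H2-Q7 in B16 (30391 and 8197 in CTRL and residual) and for Nlrc5 in CT-26 (28586 and 5584).

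**Figure D2:**
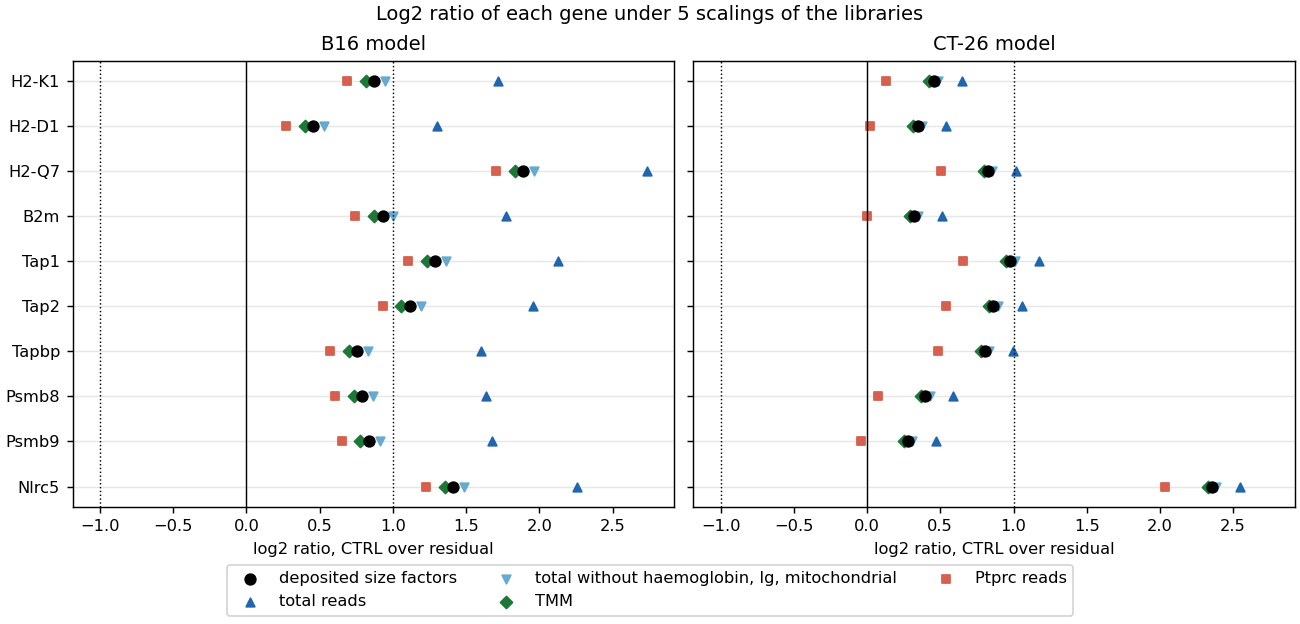
Log2 ratio of CTRL over residual for each of the 10 genes under 5 scalings of the libraries, with dotted lines at the 2-fold limit. The points of a scaling move together, furthest to the right for total reads in B16, and B2m and Psmb9 of CT-26 lie just left of 0 when scaled to Ptprc reads.

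Nlrc5, the transactivator, had the largest ratio of the 10 genes in CT-26 and the second largest in B16, and was the only member past the rule of size in both. It had 5118 normalized counts in CTRL and 1923 in the residual library of B16, a log2 ratio of 1.41 (1.33 to 1.49), or 2.66-fold. In CT-26 it had 28586 in CTRL and 5584 in the residual library, a log2 ratio of 2.36 (2.31 to 2.40), or 5.12-fold. In CT-26 only 112 of the 9514 genes at the level had a larger ratio, whereas in B16 there were 1256. The authors' deposited table gives Nlrc5 a log2 fold of 1.28 in B16 and 2.03 in CT-26, with unadjusted p-values of 0.222 and 0.114 there. Per 1000 B2m reads of the same library, a measure free of the scaling between libraries, Nlrc5 gave 56.3 and 40.3 in B16 CTRL and residual and 247 and 60.1 in CT-26 CTRL and residual. In level, Nlrc5 was the lowest of the 10 genes in both B16 libraries per kilobase of exon (603 and 226 normalized counts per kilobase in CTRL and residual) and the ninth in both CT-26 libraries (3366 and 658). The length used here and below is that of all annotated exons of a gene merged. It can exceed the length of any single transcript, so such ranks depend on the annotation.

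The classical heavy chain genes H2-K1 and H2-D1, which present peptides to CD8+ T cells, were among the most abundant members. Their ratios lay under the median of the 10 genes in both models (0.90 in B16 and 0.63 in CT-26), H2-K1 in B16 only just. H2-K1 had 143127 normalized counts in CTRL and 78155 in the residual library of B16 (log2 0.87, 0.86 to 0.89), and 250337 and 182600 in those of CT-26 (0.46, 0.45 to 0.46). H2-D1 had 206859 in CTRL and 150666 in the residual library of B16 (0.46, 0.45 to 0.47), and 456992 and 359671 in those of CT-26 (0.35, 0.34 to 0.35). Neither gene reached the 2-fold limit in a model, and H2-D1 had the smallest ratio of the 10 genes in B16. Their intervals are narrow because each library gave between 59839 and 593212 reads per gene, which says nothing about the spread between mice.

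H2-Q7, a heavy chain gene of the nonclassical Qa-2 group, had a larger ratio than H2-K1 and H2-D1 in both models. It had 30391 normalized counts in CTRL and 8197 in the residual library of B16, a log2 ratio of 1.89 (1.85 to 1.93) that was the largest of the 10 genes there. In CT-26 it had 3321 in CTRL and 1874 in the residual library, a log2 ratio of 0.82 (0.74 to 0.91) that stayed under the 2-fold limit. Its share of the reads of the 3 heavy chain genes was 7.99% in B16 CTRL (exact 95% interval 7.91 to 8.07) and 3.46% in B16 residual (3.37 to 3.54), and 0.467% and 0.344% in CT-26 CTRL and residual. Of the 50-base words in its transcripts, 26.4% also occur in transcripts of other genes, most often H2-Q10, compared with 12.8% for H2-D1 and 9.63% for H2-K1, so reads may be split between copies and single H2 values are uncertain. The submitters' processing notes name 1 genome build for both models, and heavy chain alleles differ between strains, so the counts, shares and per-B2m values of H2 genes may not mean the same in the 2 models. H2-D1 took 54.4% and 63.6% of the 3 genes' reads in B16 CTRL and residual, and 64.3% and 66.1% in CT-26 CTRL and residual.

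B2m, the light chain that every class I heavy chain needs, is free of these copies, with 0 of its 50-base words in another gene. It had 90843 normalized counts in CTRL and 47686 in the residual library of B16 (log2 0.93, 0.91 to 0.95), and 115930 and 92852 in those of CT-26 (0.32, 0.31 to 0.33). Its ratio lay near that of H2-K1 in B16 and of H2-D1 in CT-26. Per kilobase of exon, B2m was the highest of the 10 genes in B16 CTRL (105632 normalized counts per kilobase, against 80209 for H2-D1), whereas H2-D1 was the highest in B16 residual (58420, against 55448 for B2m) and in both CT-26 libraries. The merged exon length was 860 bases for B2m and 2579 for H2-D1, and another choice of transcripts could change this order. With 1 library a group there is also no spread by which to say that neighbours in this order differ.

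Read against B2m in the same library, H2-K1 differed little between the populations. It gave 1576 and 1639 reads per 1000 B2m reads in B16 CTRL and residual, and 2159 and 1967 in CT-26 CTRL and residual. H2-D1 gave 2277 and 3160 per 1000 B2m reads in B16 CTRL and residual, and 3942 and 3874 in CT-26 CTRL and residual. H2-Q7 stood out by a higher value in CTRL, with 335 and 172 in B16 CTRL and residual and 28.6 and 20.2 in CT-26 CTRL and residual. Among heavy chain genes outside the 10, H2-Q6, whose protein is closely related to that of H2-Q7, also had a higher value in CTRL, with 301 and 229 in B16 and 241 and 137 in CT-26. H2-Q10, which encodes a secreted heavy chain made mainly in liver, was the furthest apart of these genes in B16, with 5.35 and 144 in CTRL and residual, and gave 158 and 105 in CT-26 CTRL and residual. H2-T23, the gene of Qa-1, which is read by natural killer cell receptors, gave 282 and 344 in B16 and 504 and 542 in CT-26.

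**Figure D3:**
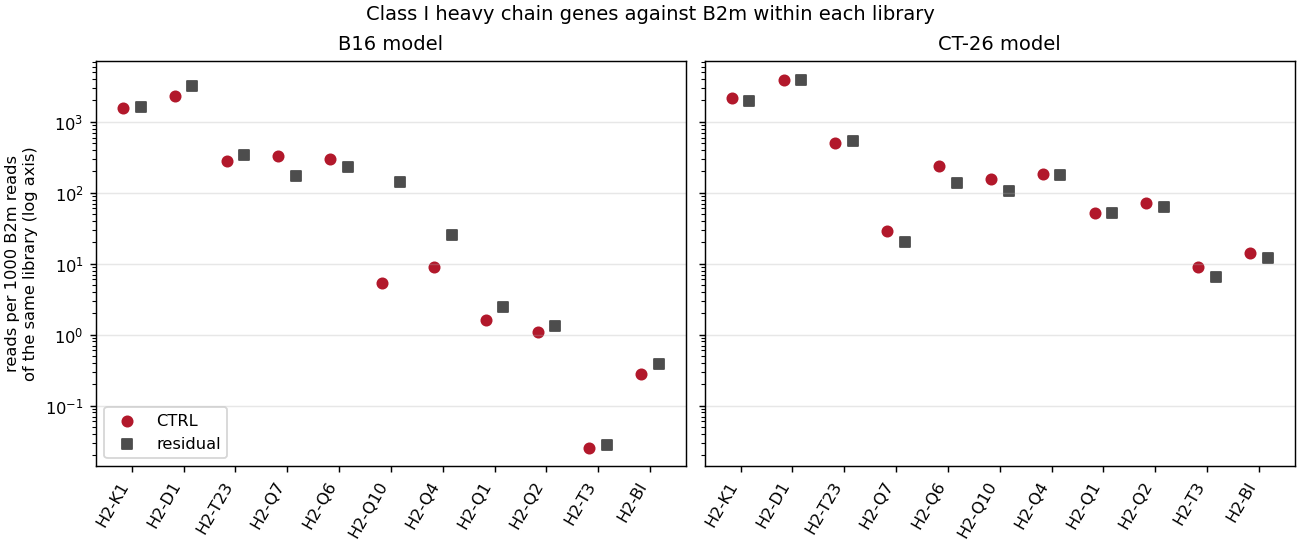
Reads of 11 class I heavy chain genes per 1000 B2m reads of the same library, on a log axis, red circles for CTRL and grey squares for the library labelled residual. H2-K1 is close between populations in both models, H2-D1 is lower in B16 CTRL (2277 and 3160), H2-Q7 and H2-Q6 are higher in CTRL in both models, and H2-Q10 in B16 is far lower in CTRL (5.35 and 144).

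The transporter genes Tap1 and Tap2 had larger ratios than B2m, H2-K1 and H2-D1 in both models. Tap1 had 13935 normalized counts in CTRL and 5705 in the residual library of B16 (log2 1.29, 1.24 to 1.34), and 33812 and 17171 in those of CT-26 (0.98, 0.95 to 1.01). Tap2 had 8351 in CTRL and 3854 in the residual library of B16 (1.12, 1.06 to 1.17), and 27904 and 15359 in those of CT-26 (0.86, 0.83 to 0.89). Both passed the 2-fold limit in B16 and neither did in CT-26, where the interval of Tap1 spans the limit. With the Ptprc scale Tap2 lay under the limit in B16, at 0.93, and 3 of the 10 genes were higher, where 19.8% of all genes were. Per 1000 B2m reads, Tap1 gave 153 and 120 in B16 CTRL and residual and 292 and 185 in CT-26 CTRL and residual, and Tap2 gave 91.9 and 80.8 in B16 and 241 and 165 in CT-26. Exons of Tap2 overlap those of antisense genes by 698 bases, and no source used here states a strand setting for the counting.

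Tapasin, encoded by Tapbp, had a similar ratio in the 2 models. It had 17421 normalized counts in CTRL and 10309 in the residual library of B16 (log2 0.76, 0.72 to 0.79), and 70494 and 40348 in those of CT-26 (0.80, 0.79 to 0.82). Per 1000 B2m reads it gave 192 and 216 in B16 CTRL and residual and 608 and 435 in CT-26 CTRL and residual, a log2 ratio of -0.17 in B16 and 0.48 in CT-26. The B16 value was 0.14 when the sum of H2-K1 and H2-D1 replaced B2m. Exons of Tapbp overlap those of Zbtb22 and of an antisense gene by 1053 bases.

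The immunoproteasome genes Psmb8 and Psmb9 had ratios under the median of the 10 genes in both models, with smaller ratios in CT-26 than in B16. Psmb8 had 10316 normalized counts in CTRL and 5961 in the residual library of B16 (log2 0.79, 0.74 to 0.84), and 18748 and 14242 in those of CT-26 (0.40, 0.36 to 0.43). Psmb9 had 8532 in CTRL and 4780 in the residual library of B16 (0.84, 0.78 to 0.89), and 17806 and 14681 in those of CT-26 (0.28, 0.25 to 0.31). Psmb9 had the smallest ratio of the 10 genes in CT-26, and it lay under Tap1, its neighbour across the shared 225 bases printed above, in both models. Per 1000 B2m reads, Psmb8 gave 114 and 125 in B16 CTRL and residual and 162 and 153 in CT-26 CTRL and residual, and Psmb9 gave 93.9 and 100.2 in B16 and 154 and 158 in CT-26. Both genes thus differed little between CTRL and residual once read against the light chain gene. The annotated exons of Psmb9 and Tap1 overlap by 212 bases on opposite strands, and those of Psmb8 overlap an antisense gene by 498 bases.

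Each inducible subunit replaces a constitutive one, and reads of one per read of the other give a measure that no library scaling can move. Psmb8 gave 4.72 reads per Psmb5 read in B16 CTRL (exact 95% interval 4.54 to 4.92) and 2.08 in B16 residual (1.98 to 2.19). In CT-26 it gave 11.6 in CTRL (11.1 to 12.2) and 5.53 in the residual library (5.27 to 5.81). Psmb9 gave 1.36 per Psmb6 read in B16 CTRL and 0.696 in B16 residual, and 1.86 and 1.37 in CT-26 CTRL and residual. Psmb10, the third inducible subunit, gave 5.58 and 3.88 per Psmb7 read in B16 CTRL and residual, and 7.36 and 5.95 in CT-26 CTRL and residual. All 3 pairs thus leaned further to the inducible subunit in CTRL in both models, without overlap of their counting intervals. For the 3 pairs summed, the ratio was 2.69 in CTRL and 1.46 in the residual library of B16, and 3.83 and 2.69 in those of CT-26. The list of 17 constitutive proteasome genes, which holds Psmb5, Psmb6 and Psmb7, had a median log2 ratio of -0.04 in B16 and -0.24 in CT-26. In B16 and CT-26, Psmb5 itself stood at -0.39 and -0.68, Psmb6 at -0.14 and -0.17, and Psmb7 at -0.10 and -0.27. Psmb10 had 0.42 in B16 and 0.03 in CT-26, where its interval (-0.0025 to 0.070) included 0. A pair ratio moves with either gene, so its lean does not show a rise of the inducible gene alone.

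**Figure D4:**
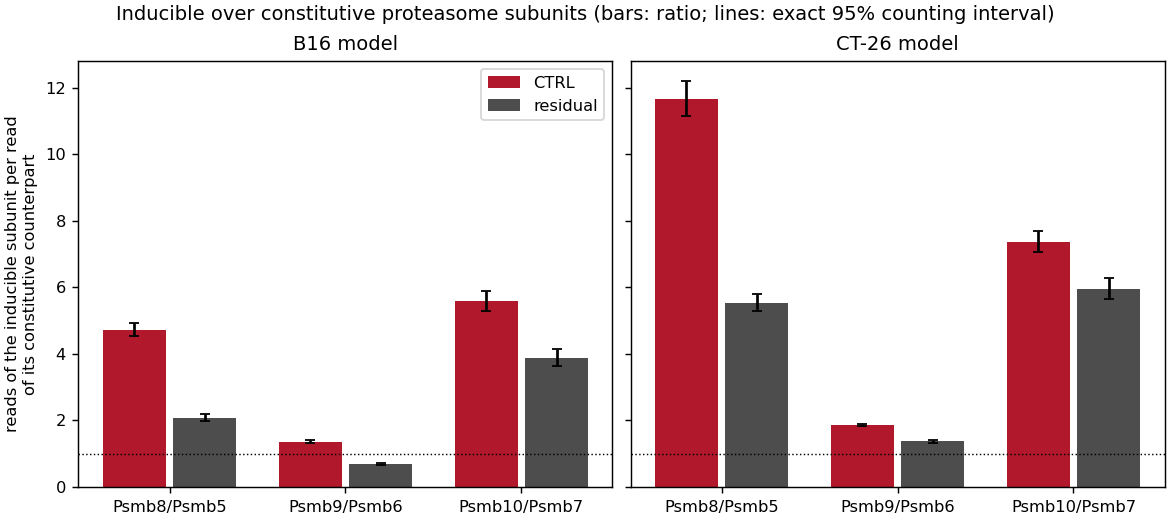
Reads of each inducible proteasome subunit per read of its constitutive counterpart, red bars for CTRL and grey bars for the library labelled residual, with lines for the exact 95% counting interval and a dotted line at 1. The red bar is the higher in all 6 pairs, and only Psmb9 over Psmb6 in B16 residual (0.696) lies under 1.

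The contrast was repeated only across the models, so a fit over the 4 libraries with model and population as terms was run on the read counts of all genes (edgeR's quasi-likelihood test, Benjamini-Hochberg adjustment), with 1 residual degree of freedom. It called 0 of the 10 genes and 0 of 18749 genes (0%) in either direction at an adjusted p under 0.05, while 4 of the 10 and 2998 of all genes had an unadjusted p under 0.05. Those 4 were Nlrc5 with a log2 change of 1.73 (SE 0.42, edgeR adjusted p = 0.246), H2-Q7 with 1.21 (SE 0.38, adjusted p = 0.288), Tap1 with 0.98 (SE 0.31, adjusted p = 0.288) and Tap2 with 0.84 (SE 0.30, adjusted p = 0.312). H2-D1 lay at the other end with 0.25 (SE 0.50, edgeR adjusted p = 0.846). DESeq2's Wald test on the same counts called 1 of the 10, Nlrc5, with 1.82 (SE 0.54, adjusted p = 0.0118), where it called 1.73% of 18332 genes higher and 8.38% lower. The adjusted p of Nlrc5 ranged between 0.0118 and 0.333 over the settings tried, and it was higher in CTRL in both models. Whether a gene's ratio differs between the models could not be tested, since such a term leaves 0 degrees of freedom, and a difference between tumours cannot be told apart from one between host strains.

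Around the 10 genes, 84 further genes of the class I pathway were read in 7 lists, of which 82 were found in the tables. Calls in all 7 lists, here and below, are to be set beside the shares over all genes at the level. Those were 26.8% higher and 11.7% lower in B16, and 14.5% higher and 16.3% lower in CT-26. Several lists lay near or under these shares. Among other class I and class I-like genes, B16 had 3 of 11 at the level higher and 1 lower (median 0.65). CT-26 had 2 of 16 higher and 3 lower (median 0.55). H2-Q6, whose reads may be split with H2-Q7, was higher in both (log2 1.32 in B16 and 1.13 in CT-26). Cd1d1, which presents lipids to NKT cells, had 1.39 and 0.98, and Mr1, which presents metabolites to MAIT cells, had 1.24 in B16, where it lay under 10 CPM, and 1.01 in CT-26. H2-Q10 went apart, at -3.81 in B16 and 0.91 in CT-26. The other genes past the rule, which were picked out after their values had been seen, were H2-M3 in B16 (1.49) and H2-T24, Fcgrt and Hfe in CT-26 (-1.02, -1.13 and -5.21).

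In the list of the loading complex and endoplasmic reticulum, B16 had 4 of 11 genes higher and 1 lower (median 0.78), and CT-26 had 3 of 11 higher and 1 lower (median 0.52). Tapbpl, the gene of the tapasin-related peptide editor TAPBPR, had 3465 normalized counts in CTRL and 801 in the residual library of B16 (2.11) and 11852 and 4388 in those of CT-26 (1.43). Erap1, the peptidase that trims peptides in the endoplasmic reticulum, had 1861 and 845 in B16 CTRL and residual (1.14) and 9393 and 2825 in CT-26 CTRL and residual (1.73). Ganab, a glucosidase subunit of glycoprotein folding, had ratios of 1.36 and 1.28, and Pdia3, the disulfide isomerase ERp57 of the loading complex, which was picked out after its value had been seen, was past the rule in B16 alone at 1.01, against 0.19 in CT-26. Sec61b, a subunit of the translocon, was the 1 lower gene, at -1.41 in B16 and -1.17 in CT-26. Tapbpl and Erap1 thus had larger ratios than Tapbp in both models.

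The proteasome lists lay lower than the 10 genes. Of 3 other inducible proteasome genes 0 were higher or lower in either model, with medians of 0.45 in B16 and 0.49 in CT-26, and the activator subunit genes Psme1 and Psme2 had 0.48 and 0.45 in B16 and 0.51 and 0.49 in CT-26. Of 17 constitutive proteasome genes, 0 were higher and 1 lower in B16, and 0 were called in CT-26. That 1 gene was Psme3, a nuclear activator subunit, at -1.53 in B16 and 0.31 in CT-26, the second value being smaller than the 0.32 by which Ptprc scaling lowers CT-26 ratios, while Psma7 had -0.11 and -0.55. Among cytosolic peptidases 2 of 6 were higher in B16 and 1 of 7 in CT-26, with 0 lower and medians of 0.35 and 0.18. Lap3, an aminopeptidase, had 1.43 and 0.65 in B16 and CT-26, Prep 1.39 and 0.08, and Thop1, which degrades cytosolic peptides, 0.53 and 1.33.

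Regulators of class I genes had a median of 0.51 in B16 (3 of 16 higher and 0 lower) and -0.04 in CT-26 (1 of 17 higher and 2 lower). These medians lay below the ratio of Nlrc5 in both models, but Rfx5 and Ciita lay above Nlrc5 in B16. Rfx5, a subunit of the RFX complex that binds class I and class II promoters, had 816 normalized counts in CTRL and 217 in the residual library of B16 (1.91) and 1153 and 889 in those of CT-26 (0.37). Ciita, the class II counterpart of Nlrc5, which is active in B cells, had 8048 and 2702 in B16 CTRL and residual (1.57) but 651 and 3154 in CT-26 CTRL and residual (-2.27). B-cell marker sums went the same way as Ciita, 2.38 in B16 and -1.98 in CT-26, and their part in it was not tested, while Nlrc5 had a higher value in CTRL in both. Of the NF-Y subunits, Nfyb had 1.13 and 0.43 in B16 and CT-26 and Nfya -0.53 and -1.0, and Rfxank, picked out after its value had been seen, was past the rule in CT-26 alone at 1.02, against 0.01 in B16.

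Interferon receptors and signalling genes, through which Nlrc5, Tap1 and Psmb9 can be induced, had medians of 0.20 in B16 (2 of 8 higher and 0 lower) and 0.13 in CT-26 (1 of 8 higher and 2 lower). Jak1, a kinase of both interferon receptor types, had 31539 normalized counts in CTRL and 13403 in the residual library of B16 (1.23), and 125466 and 58333 in those of CT-26 (1.10). Jak2, a kinase of the interferon-gamma receptor, had 1.18 and 0.46 in B16 and CT-26. The receptor chain genes Ifngr2 and Ifnar2 had -0.33 and -0.46 in B16 and were lower in CT-26, at -1.75 and -1.40.

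**Figure D5:**
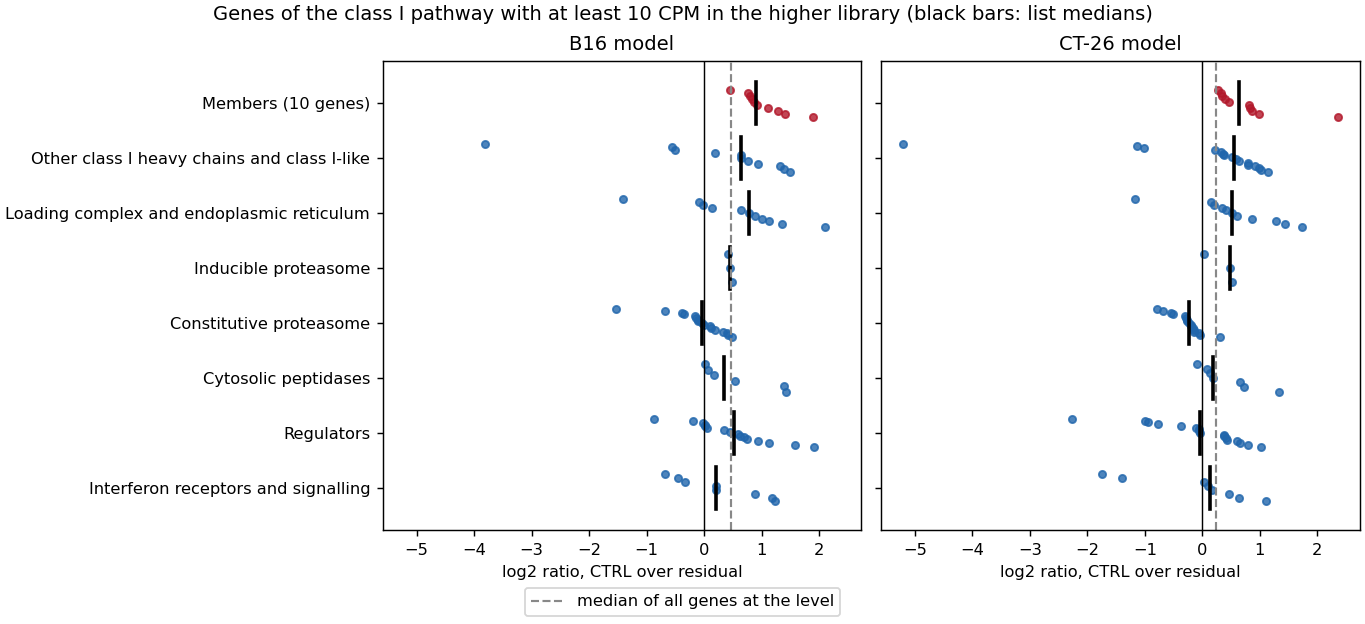
Log2 ratio of CTRL over residual for the 10 genes (red) and for the genes of 7 further lists of the class I pathway (blue) that reach 10 CPM in the higher library, with black bars for list medians and a dashed line for the median of all genes at that level (0.47 in B16 and 0.23 in CT-26). All red points lie right of 0 under the deposited scaling, while every other list except the inducible proteasome and the B16 peptidases has points on both sides of it.

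Outside the lists, the genes whose ratios in the 2 models lay closest to the medians of the 10 genes (0.90 and 0.63) were Prpf4 (0.91 and 0.64), Phf7 (0.92 and 0.63), Parg (0.91 and 0.64), Phf12 (0.89 and 0.62) and Ddx39b (0.88 and 0.63). They were chosen for that likeness among 5961 genes by the distance between 2 log2 ratios, so the likeness is a description over 4 libraries. Together the 10 genes took 1.88% and 0.622% of the reads in genes of B16 CTRL and residual, and 1.78% and 1.13% of those of CT-26. With haemoglobin reads left out of the total the shares were 1.90% and 1.07% in B16 and 1.79% and 1.27% in CT-26.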

How the data were processed

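Read counts per gene for the 4 libraries (1 per group) came as whole numbers in a table per model that the authors deposited. The normalized read counts beside them, a signal that the authors deposited per the file headers, equal those counts divided by 1 size factor per library. The log2 fold and the unadjusted p-value in the authors' deposited table are printed only as theirs. The kit was SMART-Seq v4, per the labels' protocols. The tools that the submitters' processing notes list are HTSeq 0.11.2, STAR 2.7.3a and DESeq2, with the build mm10. Strand, multi-mapping and annotation settings are not given in these sources.

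Computed here were log2 ratios of the deposited normalized counts (pseudocount 1), CPM from the total of reads in genes, and exact counting intervals from the raw counts, which cover counting error only because PCR reads without molecular identifiers are not independent molecules. No test was run within a model, since the populations have 1 library each. In the fit over both models, the 1 residual degree of freedom reflects how far a gene's ratio differed between the models. Information on spread was also borrowed across genes. The p-values and SE of that fit therefore do not measure a spread between replicates of a group. That fit used edgeR 4.0.16 (TMM factors, filterByExpr) and DESeq2 1.42.0 in R 4.3.3, with the SE of edgeR implied by its F statistic; other steps used Python 3.11.15 and scipy 1.17.1. Scripts were tested on simulated counts. The 10 genes, the lists and the marker lists were chosen with earlier results of these data known. From each list up to 4 genes are named: those past the rule of size in a model with the largest smaller ratio over both models, or, where fewer than 2 pass, the 2 with most reads; genes outside this are marked. Nrdc was read under its older symbol Nrd1, and H2-Q8 and H2-Q9 were not matched by symbol. Shared words of 50 bases were counted among GENCODE M21 transcripts, and promoters came from RefSeq. Alternatives were other scalings, pseudocounts of 0.1 and 5, size limits of 1.5-fold and 4-fold, level limits of none and 50 CPM, the authors' fold, lists without the heavy chain genes and other settings of the fit. The Ptprc scaling was added after seeing the data.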

Additional observations from a re-analysis of the deposited data

Results flagged for a closer look

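With 1 library per group, these differences between the models were not tested. H2-Q10 was picked out because it went opposite ways, with a log2 ratio of CTRL over residual of -3.81 in B16 and 0.91 in CT-26; of its 50-base words, 19.0% occur in transcripts of other genes, most often H2-Q7. Psme3 stood at -1.53 in B16 and 0.31 in CT-26, the second value being smaller than the 0.32 by which Ptprc scaling lowers CT-26 ratios. Ciita stood at 1.57 in B16 and -2.27 in CT-26, and the summed B-cell markers at 2.38 and -1.98. Fcgrt, the neonatal Fc receptor gene, stood at 0.65 in B16 and -1.13 in CT-26, and Hfe, a class I-like gene of iron regulation, at 0.19 and -5.21. The B16 value of Hfe lies near the 0.19 by which Ptprc scaling lowers B16 ratios. The summed NK-cell markers stood at 0.71 in B16 and -0.96 in CT-26, but the B16 sum was mostly Nkg7 (18361 and 9033 normalized counts in CTRL and residual), and the median of the 5 markers was below 0 in both models, at -0.65 and -4.37. None of the 10 class I and peptide loading genes went opposite ways in the 2 models under the deposited scaling.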

How the results depend on the processing

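Of the 10 genes' ratios under the alternatives, 70 of 70 were above 0 in B16 and 68 of 70 in CT-26, the exceptions being B2m (-0.0029) and Psmb9 (-0.045) scaled to Ptprc. Most alternatives could hardly turn a sign, so this tally is no measure of robustness. Both totals raised every ratio, the pseudocounts were small against these counts, and the authors' fold rests on the same counts. With the deposited scaling, 69.5% of all genes at the level in B16 and 60.3% in CT-26 were above 0. Scaled to total reads, 10 genes were higher in B16 (median 1.74) and 4 in CT-26 (median 0.82), and without haemoglobin, immunoglobulin and mitochondrial genes in the total the medians were 0.98 and 0.66, with 5 and 2 genes higher (29.7% and 15.3% of all genes). Medians in B16 and CT-26 were 0.84 and 0.60 with TMM, 0.83 and 0.57 with the log2 fold of the authors' deposited table, and 0.72 and 0.31 with Ptprc; without the heavy chain genes the CT-26 median was 0.80. A limit of 1.5-fold gave 9 and 5 genes (44.6% and 31.2% of all genes). One of 4-fold gave 0 in B16 (4.4% of all genes) and 1, Nlrc5, in CT-26 (2.19%). Pseudocounts and level limits changed no count of the 10 genes. In B16, the ratios of Tapbp, Psmb8 and Psmb9 to B2m turned to 0.14, 0.18 and 0.22 with H2-K1 and H2-D1 as the denominator. In the fit over both models, DESeq2 and edgeR with no filter on low counts each called 1 of the 10, Nlrc5. Over all genes, DESeq2 called 317 higher and 1536 lower and edgeR with no filter 167 and 820, against 0 and 0. By the rule of size, the 2485 genes higher and 1088 lower in B16 became 5911 and 597 with total reads, and the 1381 higher and 1555 lower in CT-26 became 736 and 1931 with Ptprc. The labels give no replicate numbers; the model term of the fit pairs CTRL with the residual of the same model, and without that term 0 of the 10 were called. Leaving out a library leaves 0 degrees of freedom. The lowest count of a member was 1444 reads, and with 1 library per group the spread between samples is unknown.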
